A study of Homo sapiens with 18 samples.

Results

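The 31 genes described here make or handle cholesterol, or are textbook targets of the transcription factor SREBP2 and its relatives. They were taken by symbol from a list that was chosen with earlier results of these data known. All 31 were listed in the expression tables of 3 human cancer cell lines, among 25673 genes in RKO, 19881 in COLO 201 and 19977 in H1975. H1975 comes from a lung cancer, and the remaining lines from colon cancers. Each line carried tet-MUC1shRNA, a short hairpin RNA against MUC1 that doxycycline switches on, together with puromycin resistance. The vehicle arm had 0.1% DMSO and the other arm 500 ng/ml doxycycline, with 3 columns per arm and line and 18 in all. RKO was grown in EMEM and the other lines in RPMI1640, and all media held serum, itself a source of cholesterol. No cells with a control hairpin and doxycycline were analysed here, so the hairpin and doxycycline itself cannot be told apart.

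Cells make cholesterol from acetyl-CoA by the mevalonate pathway, which runs over farnesyl diphosphate to squalene, lanosterol and then cholesterol. SREBP2, encoded by SREBF2, is made as a membrane protein of the endoplasmic reticulum. When sterols are low, SCAP escorts it to the Golgi, where the site-1 and site-2 proteases release the part that enters the nucleus and switches on the pathway's genes. When sterols are high, INSIG proteins hold SCAP back, and oxysterols activate the LXR receptors, which raise the export pumps ABCA1 and ABCG1.

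SREBP binds sterol regulatory elements near the start sites of its targets, so the start sites of the members were searched for them. Of the 31 members, 26 matched a RefSeq promoter (GRCh38.p14, 250 bases before to 50 after the start, 34 promoters in all). The 9 letters TCACNCCAC, searched on both strands, were found in 1 member, SREBF2, and in 1.13% of 35116 promoters. Its inner 8 letters CACNCCAC, which every match of the longer word also holds, were found in 7 members and in 5.87% of all promoters. CCAAT, the word of the partner factor NF-Y, was found in 20 of the 26 members and in 34.6% of all promoters; several members have more than 1 promoter, and these words were picked with the matches in view. The windows of 5 members that recur in the results are shown 5′ to 3′ on the gene's strand, with the 8 matching letters, or their reverse complement, in capitals.
SREBF2: gacgcgccatCACCCCACgcaccgcttcg
INSIG1: cgggccggcgGTGGCGTGtgcgcacgtca
IDI1: gccgggcgatGTGGCGTGgactggcgctg
SCD: cagaggccggGTGGTGTGgtgtcggtgtc
ABCA1: cctccaccccCACCCCACccacctccccc
The SREBF2 window is chr22:41832963-41832991 (plus strand), before the gene and in an exon of the antisense gene SREBF2-AS1. The INSIG1 window is chr7:155297660-155297688 (plus strand), where GENCODE release 29 has no gene. The IDI1 window at chr10:1048983-1049011 (minus strand) and the SCD window at chr10:100347109-100347137 (plus strand) overlap the first exon and 5′ UTR of their genes. The ABCA1 window, chr9:104928365-104928393 (minus strand), lies before the gene, inside the antisense gene AL359182.1. A match is a run of letters and not a measured binding site.

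MUC1 was the check of the column headings. It stood at 15.2, 1.24 and 1.03 TPM (transcript levels scaled so that each column has the same total) in the vehicle columns of RKO and 0.108, 0.105 and 0.204 TPM with doxycycline, went from 13.9 ± 0.940 TPM in vehicle to 1.78 ± 0.250 TPM in COLO 201 and from 97.5 ± 9.98 TPM in vehicle to 8.01 ± 1.35 TPM in H1975 (SD, n = 3), and did not overlap between arms in any line. Limma's adjusted p was 0.0027, 3.5e-10 and 4.1e-11, and 0.14 in RKO after rescaling. The exact two-sided permutation p was 0.1 in each line, the smallest that 3 against 3 columns can give. Vehicle column 1 of RKO stood apart from the other 5 RKO columns. Its 11 fibroblast and endothelial markers summed to 655 TPM, led by VIM and CAV1, against 2.50 to 8.17 TPM elsewhere in RKO. Several genes near this pathway followed: the desaturase FADS1 was at 10.2 TPM and the elongase ELOVL5 at 23.3 TPM in that column, and both were listed at 0 in the other 5. RKO calls and counts are therefore also given without this column, in most cases with rescaling as well. MUC1 was not tested in RKO without it, since its mean then lay under the minimum of 1 TPM. Epithelial markers summed to between 28.7 and 68.7 TPM in RKO columns, between 7468 and 7838 TPM in COLO 201 and between 2362 and 2753 TPM in H1975. Of 6 colon markers, 2 were at 0 in every RKO column and the 6 summed to at most 2.96 TPM there. The 7 lung markers summed to 27.0 to 31.02 TPM in H1975 vehicle columns and 16.3 to 19.2 with doxycycline, with SFTPC at 0 in all 6. In COLO 201 the 6 colon markers summed to 187 to 189.6 TPM in vehicle columns and 136 to 138 TPM with doxycycline, and the fibroblast and endothelial markers, nearly all CAV1, to 32.2 to 35.2 TPM and 11.3 to 12.7 TPM; in H1975 the latter summed to 952 to 1070.3 TPM and 778 to 877 TPM. Leukocyte and erythroid markers summed to at most 4.16 TPM in any column. The part of these markers in the member changes was not tested. Small noncoding RNA genes held 67.8% to 78.7% of TPM in RKO, so that the other genes share the remainder. In COLO 201 mitochondrially encoded genes held 20.1% to 23.0% of TPM in vehicle columns and 16.9% to 18.6% with doxycycline. In H1975 they held 17.4% to 22.5% and 16.1% to 17.4%. The median of all genes tested moved by −0.26 on the log2 scale in RKO, by 0.12 in COLO 201 and by 0.06 in H1975. Rescaling the columns by their median ratio brought these medians to −0.00, −0.01 and 0.02. Levels are compared within a line only, since the tables were normalized separately.

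The called members differed in direction between the 3 lines. In H1975, 13 of the 29 tested members rose with doxycycline and 0 fell, with a median log2 change of 0.16 against 0.06 over all genes tested. In COLO 201, 14 of 30 rose and 7 fell, with a median of 0.09 against 0.12. In RKO, 0 of 28 rose and 4 fell, with a median of −0.35 against −0.26. At an unadjusted limma p under 0.05 the counts were 15 higher and 0 lower in H1975, 15 and 9 in COLO 201, and 0 and 11 in RKO. Every change is on the log2(TPM + 1) scale, which understates changes of low genes, and a gene is said to rise or fall where limma's p, adjusted by Benjamini-Hochberg over all genes tested in the line, was under 0.05. Over all genes tested, limma called 23.9% higher and 14.6% lower in H1975, 45.9% higher and 15.0% lower in COLO 201, and 2.09% higher and 16.1% lower in RKO. The member shares were 44.8% higher in H1975, 46.7% higher and 23.3% lower in COLO 201, and 14.3% lower in RKO. The shares higher in COLO 201 and lower in RKO lay near those of all genes, whereas the shares higher in H1975 and lower in COLO 201 lay above them. In these bulk samples fewer cells of a type and less RNA per cell cannot be told apart.

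The split depended on scaling in both colon lines. After rescaling, COLO 201 had 9 members higher and 12 lower (27.3% and 29.7% of all genes), with SREBF1, HMGCS1, IDI1, MSMO1 and NSDHL joining the lower ones. RKO, rescaled and without vehicle column 1, had 8 higher and 9 lower (29.1% and 29.8% of all genes). Without that column but not rescaled, RKO had 1 higher, DHCR7, and 4 lower, ACAT2, FDPS, HSD17B7 and SCD (2.10% and 18.2% of all genes). Rescaled with all columns it had 4 higher and 5 lower (13.8% and 14.0% of all genes). H1975 kept 13 higher and 0 lower after rescaling, against 21.2% and 18.5% of all genes, and these were the same 13 genes. Leaving out vehicle column 1, vehicle column 3 or doxycycline column 1 of H1975 reduced the 13 to 7, 8 and 8. Of all genes, 1618 of 12347, 2214 of 12333 and 1949 of 12381 were then higher, against 2959 of 12359 with every column. FDFT1, STARD4, ACACA and ABCA1 were lost each time. In COLO 201 the calls of MVK and EBP were each lost when any of 5 single columns was left out. In RKO the 4 became 0 without doxycycline column 1, 9 without doxycycline column 2, 1 without doxycycline column 3 and 2 without vehicle column 2, and SCD was the call left without doxycycline column 3. Of all genes, 477 of 10651, 2302 of 10570, 893 of 10615 and 1364 of 10526 were lower in these fits, in that order. With every column 1695 of 10551 were lower.

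**Figure D1:**
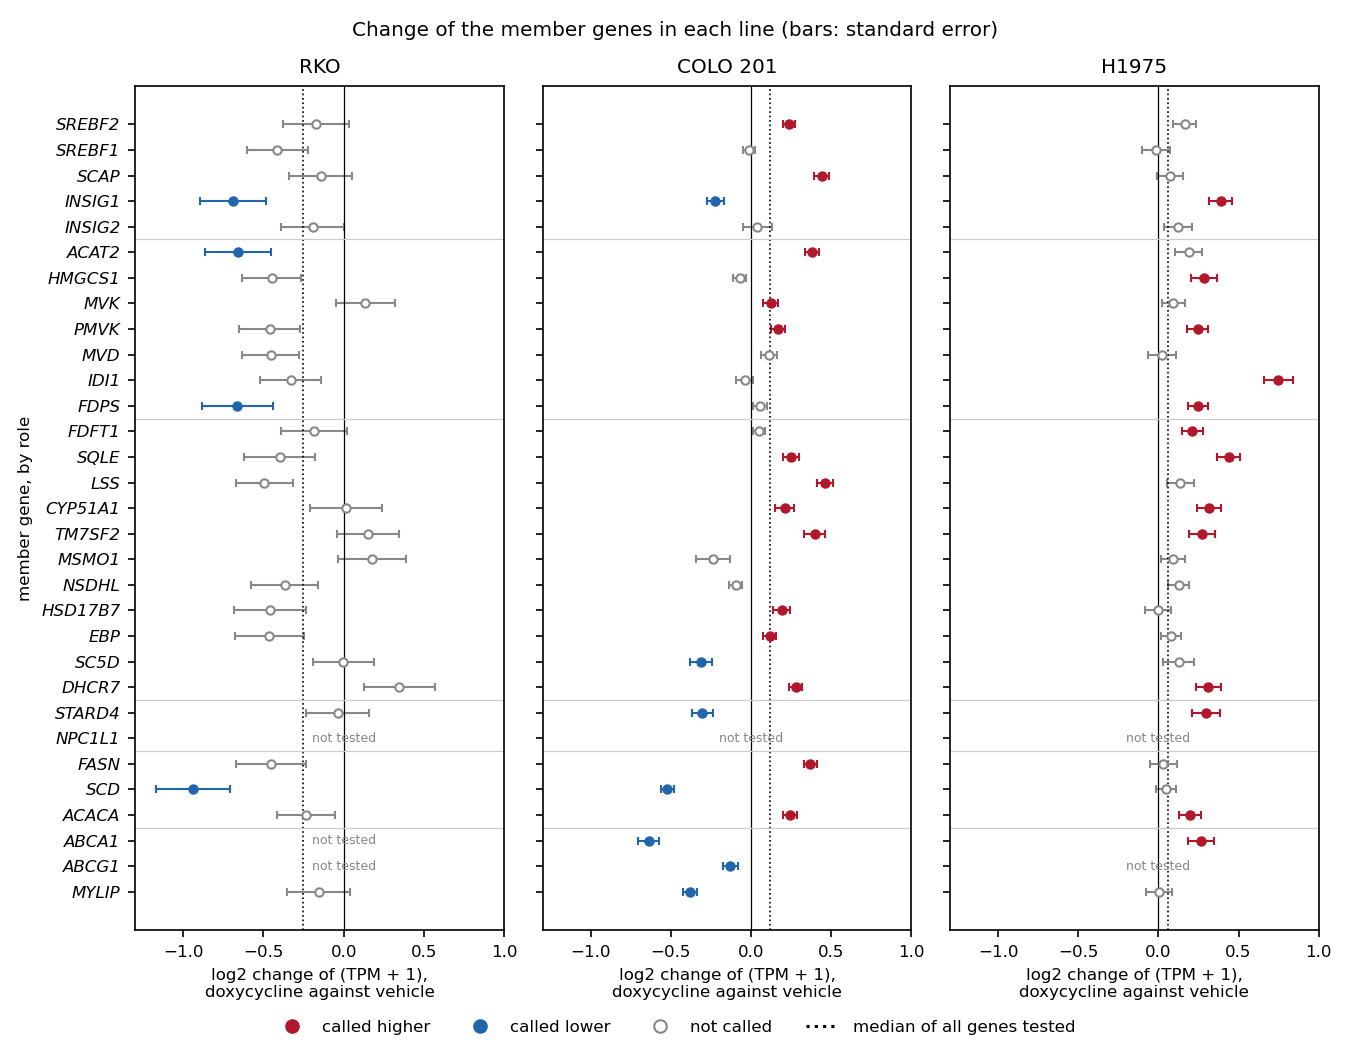
Log2 change of (TPM + 1), doxycycline against vehicle, for the 31 members in order of their roles (rows) in RKO, COLO 201 and H1975 (panels); bars are standard errors, filled points are called at an adjusted p under 0.05 and the dotted line is the median of all genes tested. The 13 called members of H1975 all lie to the right of 0, those of COLO 201 lie on both sides, and the 4 of RKO lie to the left.

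The 5 regulators include the member that was called in all 3 lines as deposited. INSIG1, which holds SCAP in the endoplasmic reticulum and is itself a sensitive SREBP target, stood at 40.5, 44.9 and 40.97 TPM in the vehicle columns of H1975 and 54.4, 53.4 and 58.6 TPM with doxycycline. All doxycycline columns were above all vehicle columns, a log2 change of 0.39 ± 0.07 (SE, adjusted p = 8.1e-04). In COLO 201 it went the other way, from 48.2, 46.2 and 43.3 TPM to 39.9, 41.1 and 36.6 TPM, again with no overlap, a change of −0.22 ± 0.05 (SE, adjusted p = 0.0034). RKO had 14.4, 10.95 and 9.26 TPM in vehicle and 5.15, 8.76 and 6.5 TPM with doxycycline, the vehicle value of column 1 being the highest of the 6. Its change there was −0.69 ± 0.21 (SE, adjusted p = 0.019). This call was lost without vehicle column 1, at −0.53 (adjusted p = 0.074), and after rescaling, at −0.43 (adjusted p = 0.1); with both it was −0.25 (adjusted p = 0.0089). INSIG2, the second INSIG protein, had overlapping arms in every line and was called in none.

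SREBF2 and SCAP rose in COLO 201. SREBF2 stood there at 118, 122 and 122 TPM in vehicle and 144, 142 and 141 TPM with doxycycline, the arms lying apart, with a change of 0.24 ± 0.04 (SE, adjusted p = 1.4e-04). SCAP went from 22.1, 22.2 and 23.3 TPM to 32.4, 29.97 and 30.5 TPM, or 0.44 ± 0.05 (SE, adjusted p = 7.7e-06). Both were still called higher after rescaling, at 0.10 (adjusted p = 0.025) and 0.31 (adjusted p = 2.7e-04). In H1975 SREBF2 changed by 0.16 (adjusted p = 0.076) and in RKO by −0.17 (adjusted p = 0.57), neither past the threshold. SREBF1, whose products SREBP1a and SREBP1c favour fatty acid genes, was called in no line: its change was −0.01 in H1975 (95% interval −0.20 to 0.17), −0.02 in COLO 201 (−0.10 to 0.07) and −0.41 in RKO (−0.81 to −0.02). Rescaling made SREBF1 lower in COLO 201, at −0.15 (adjusted p = 0.0053). The antisense gene at the start of SREBF2 could share its reads if the counting did not use strand, which is not given in the sources used here.

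Of the 7 enzymes from acetyl-CoA to farnesyl diphosphate, 4 rose in H1975, 3 rose in COLO 201 and 2 fell in RKO. After rescaling 1 was higher and 2 lower in COLO 201, and 1 was higher and 3 lower in RKO, with or without vehicle column 1. As deposited, the share higher in COLO 201, 42.9%, lay near the 45.9% of all genes. The share higher in H1975 was 57.1% against 23.9% of all genes, and the share lower in RKO 28.6% against 16.1%. After rescaling, 27.3% of all genes were higher and 29.7% lower in COLO 201. For RKO these all-gene shares were 13.8% and 14.0%, or 29.1% and 29.8% without vehicle column 1. IDI1, the isopentenyl diphosphate isomerase, had the largest change of any member in H1975. It stood at 37.6, 44.9 and 38.01 TPM in vehicle and 66.7, 61.96 and 75.8 TPM with doxycycline, so that the lowest doxycycline column was well above the highest vehicle column, and its mean was 169.8% of that in vehicle, a change of 0.75 ± 0.09 (SE, adjusted p = 2.3e-05). In COLO 201 IDI1 was not called as deposited, at 67.2, 69.3 and 62.1 TPM and 64.3, 68.03 and 60.8 TPM with overlapping arms, a change of −0.04 (interval −0.15 to 0.07), and after rescaling it was called lower at −0.17 (adjusted p = 0.007). RKO had 7.502, 7.29 and 6.09 TPM and 4.27, 6.93 and 4.996 TPM, overlapping, with a change of −0.33 that was not called (adjusted p = 0.21) and that was −0.01 when rescaled without vehicle column 1.

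HMGCS1, the cytosolic HMG-CoA synthase, went from 41.1 ± 2.799 TPM in vehicle to 50.4 ± 4.64 TPM in H1975, a change of 0.29 ± 0.08 (SE, adjusted p = 0.013), and changed by −0.07 (adjusted p = 0.15) in COLO 201 and −0.45 (adjusted p = 0.086) in RKO, where it was −0.13 (adjusted p = 0.07) when rescaled without vehicle column 1. FDPS, the farnesyl diphosphate synthase, was the second most abundant member of every line by its mean in vehicle. It rose in H1975 from 153, 155 and 163 TPM to 187, 194 and 180.2 TPM, by 0.25 ± 0.06 (SE, adjusted p = 0.0072). It fell in RKO from 43.5, 43.96 and 37.2 TPM to 21.4, 31.5 and 25.5 TPM, the arms not overlapping in either line, a change of −0.66 ± 0.22 (SE, adjusted p = 0.035), and the RKO value was −0.32 (adjusted p = 2.1e-04) when rescaled without vehicle column 1. ACAT2, the cytosolic acetoacetyl-CoA thiolase that starts the pathway, also differed in direction. It rose in COLO 201 from 30.3, 30.3 and 31.3 TPM to 41.6, 38.9 and 40.2 TPM, by 0.38 ± 0.04 (SE, adjusted p = 1.2e-05), and fell in RKO from 18.9, 17.5 and 15.7 TPM to 8.83, 13.9 and 9.77 TPM, a change of −0.66 ± 0.21 (SE, adjusted p = 0.025), or −0.30 (adjusted p = 0.0027) when rescaled without vehicle column 1. The 2 kinases of mevalonate were both called in COLO 201. PMVK, the phosphomevalonate kinase, rose in H1975 (0.25, adjusted p = 0.0089) and COLO 201 (0.17, adjusted p = 0.0054), where the call was lost after rescaling at 0.04 (adjusted p = 0.55). MVK, the mevalonate kinase, rose in COLO 201 by 0.12 (adjusted p = 0.044), a change that became −0.00 after rescaling. In RKO, MVK was at 0.14 (adjusted p = 0.62) as deposited and was called higher at 0.41 (adjusted p = 2.5e-04) when rescaled without vehicle column 1. MVD, the decarboxylase, was called in no line as deposited. FDPS has pseudogene copies, and how their reads were counted is not given in the sources used here.

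**Figure D2:**
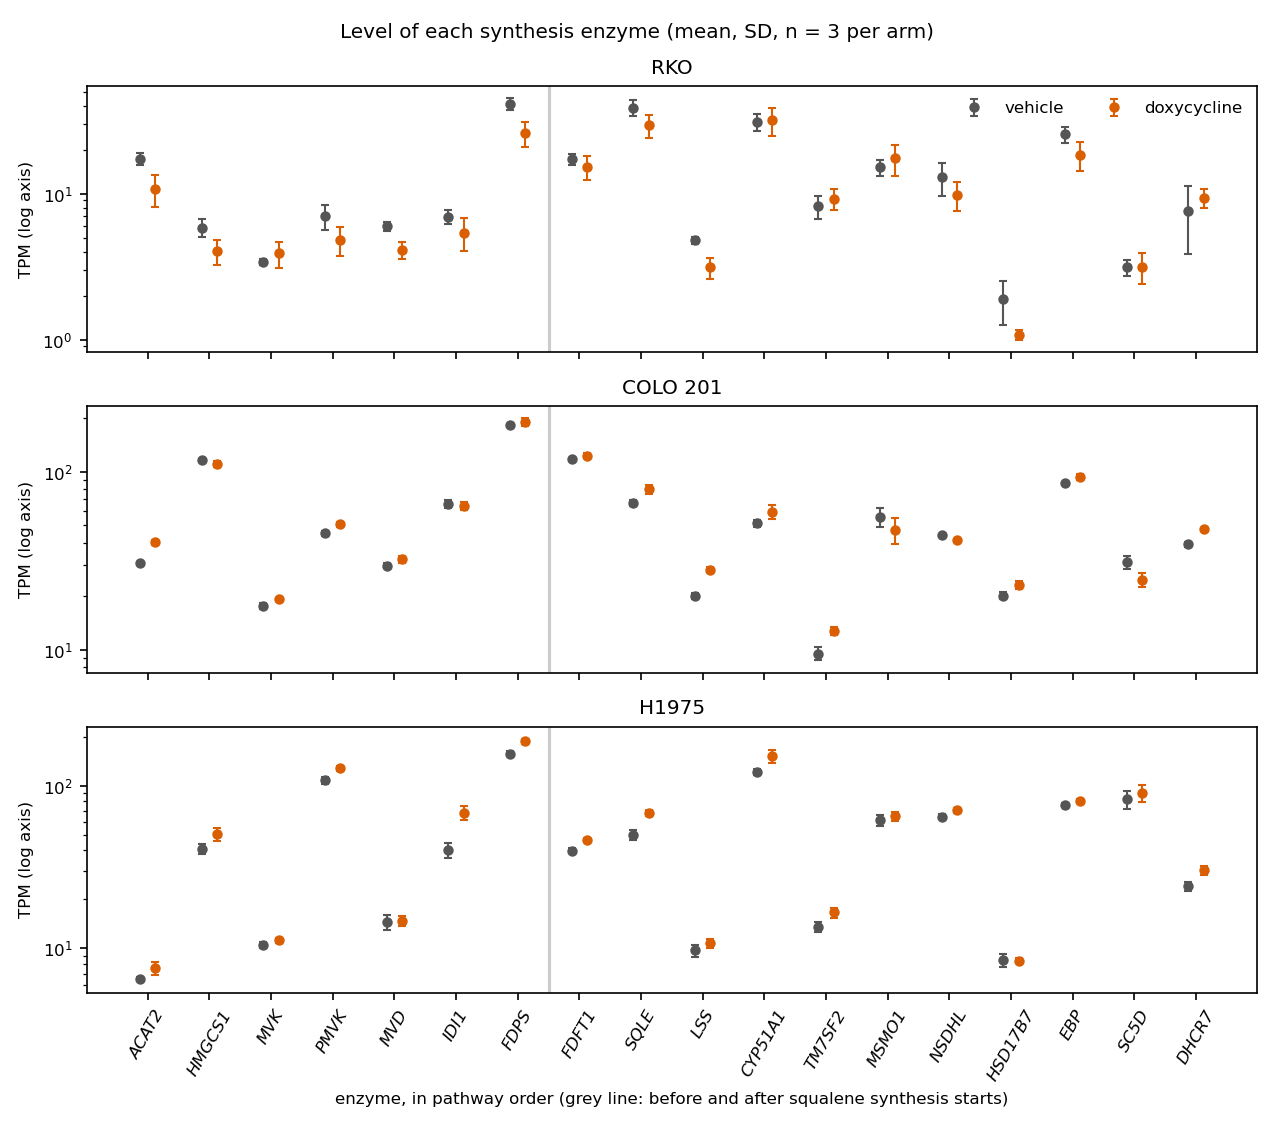
TPM (log axis) of the 18 synthesis enzymes in pathway order in the vehicle and doxycycline columns of each line; points are means and bars SD, n = 3. With TPM as deposited, the doxycycline mean in H1975 lies above the vehicle mean for every enzyme except HSD17B7, while in RKO it lies below it for most.

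After farnesyl diphosphate, 11 enzymes lead over squalene and lanosterol to cholesterol. Of these, 5 rose in H1975 and 0 fell, 7 rose in COLO 201 and 1 fell, and 0 were called in RKO as deposited by limma, where 2 had an unadjusted p under 0.05. After rescaling 4 were higher and 3 lower in COLO 201, and the H1975 counts were the same. RKO had 6 higher and 3 lower when rescaled without vehicle column 1. As deposited, 23.9% of all genes were higher and 14.6% lower in H1975, 45.9% and 15.0% in COLO 201, and 2.09% and 16.1% in RKO. Under the rescaled settings these shares were 21.2% and 18.5% in H1975, 27.3% and 29.7% in COLO 201, and 29.1% and 29.8% in RKO. SQLE, the squalene epoxidase and a rate-limiting step, rose in both H1975 and COLO 201. It stood at 46.5, 53.7 and 49.8 TPM in H1975 vehicle columns and 69.5, 64.5 and 70.2 TPM with doxycycline, a change of 0.44 ± 0.07 (SE, adjusted p = 4.0e-04). COLO 201 had 69.3, 66.6 and 64.6 TPM and 81.6, 83.01 and 74.4 TPM, or 0.25 ± 0.05 (SE, adjusted p = 7.6e-04), and the arms lay apart in both lines. RKO had 42.02, 41.5 and 33.3 TPM and 24.3, 35.1 and 29.01 TPM, overlapping, and −0.40 was not past the threshold (adjusted p = 0.2), nor was −0.03 (adjusted p = 0.6) when rescaled without vehicle column 1.

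LSS, the lanosterol synthase, had the largest rise of the members in COLO 201, from 19.3, 20.2 and 20.97 TPM to 29.2, 27.4 and 27.9 TPM, 139.7% of vehicle and 0.46 ± 0.05 (SE, adjusted p = 6.3e-06). The same gene was at 4.99, 4.92 and 4.45 TPM in RKO vehicle columns and 2.56, 3.59 and 3.23 TPM with doxycycline, arms that did not overlap, yet −0.49 just missed the threshold (adjusted p = 0.055) and −0.22 (adjusted p = 0.0055) passed it when rescaled without vehicle column 1. In H1975 it changed by 0.14 (interval −0.04 to 0.32). CYP51A1, the lanosterol demethylase, rose in H1975 by 0.31 (adjusted p = 0.0051) and in COLO 201 by 0.21 (adjusted p = 0.008), the second being lost after rescaling, at 0.08 (adjusted p = 0.19). TM7SF2, a sterol C14 reductase, rose in the same lines by 0.27 (adjusted p = 0.015) and 0.40 (adjusted p = 2.3e-04). In RKO CYP51A1 and TM7SF2 were not called as deposited, at 0.02 (adjusted p = 0.97) and 0.15 (adjusted p = 0.6). Both were called higher there when rescaled without vehicle column 1, at 0.24 (adjusted p = 0.0039) and 0.32 (adjusted p = 7.9e-04). FDFT1, the squalene synthase, rose in H1975 by 0.21 (adjusted p = 0.021) and was at 0.05 (interval −0.03 to 0.13) in COLO 201.

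DHCR7, which makes cholesterol from 7-dehydrocholesterol in the last step, rose in H1975 and COLO 201 and depended on 1 column in RKO. Its change was 0.31 ± 0.08 (SE, adjusted p = 0.0061) in H1975, from 24.1 ± 1.59 TPM in vehicle to 30.2 ± 2.07 TPM, and 0.28 ± 0.04 (SE, adjusted p = 1.2e-04) in COLO 201, from 39.2 ± 1.21 TPM in vehicle to 47.7 ± 0.920 TPM. RKO had 11.9, 5.62 and 5.21 TPM in vehicle and 7.84, 10.6 and 9.66 TPM with doxycycline. Vehicle column 1 was the highest of the 6, whereas the other vehicle columns lay below all doxycycline columns. The change there was 0.35 (adjusted p = 0.27) with it, 0.68 (adjusted p = 0.017) without it, and 0.96 (adjusted p = 2.2e-07) when rescaled as well.

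SC5D, the sterol C5 desaturase just before DHCR7, fell in COLO 201 from 30.6, 33.9 and 28.8 TPM to 24.5, 27.02 and 22.9 TPM, the arms not overlapping, a change of −0.31 ± 0.07 (SE, adjusted p = 0.0016). MSMO1, the methylsterol monooxygenase, had overlapping arms in COLO 201 and missed the threshold at −0.24 (adjusted p = 0.069), with −0.37 (adjusted p = 0.013) after rescaling. NSDHL, the sterol decarboxylating dehydrogenase, was similar in COLO 201 at −0.10 (adjusted p = 0.053) and −0.23 (adjusted p = 7.3e-04) after rescaling. With the column number added to the limma fit as a block, both were called lower there as deposited (adjusted p = 2.8e-04 and 0.037). Thus enzymes of the same stretch of the pathway lay on both sides of the COLO 201 median. EBP, the sterol isomerase, and HSD17B7, the sterone reductase, rose there by 0.12 (adjusted p = 0.024) and 0.19 (adjusted p = 0.0086); after rescaling EBP turned to −0.02 and HSD17B7 was at 0.06 (adjusted p = 0.26). In RKO neither was called as deposited, and both were called lower when rescaled without vehicle column 1, EBP at −0.23 (adjusted p = 0.005) and HSD17B7 at −0.41 (adjusted p = 7.4e-04), while MSMO1 was called higher there at 0.46 (adjusted p = 1.5e-04). HSD17B7 has near-identical pseudogene copies and was the lowest tested member of RKO.

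Summed over the 18 enzymes, transcript levels were higher with doxycycline in H1975, whereas the direction in the colon lines depended on scaling. As deposited, the sum went from 929 ± 35.7 to 1105 ± 26.5 TPM in H1975 (119% of vehicle), from 1031 ± 17.1 to 1088 ± 16.7 TPM in COLO 201 (106%) and from 255 ± 22.5 to 207.5 ± 42.0 TPM in RKO (81.4%, or 83.0% without vehicle column 1; SD, n = 3). In H1975 the lowest doxycycline column, 1078 TPM, was above the highest vehicle column, 960 TPM. COLO 201 kept its arms apart as well, at 1011 to 1041 TPM in vehicle and 1071 to 1104 TPM with doxycycline. RKO columns overlapped, at 229 to 271 TPM and 169 to 252 TPM. After rescaling, the sum with doxycycline was 116% of vehicle in H1975, but 96.3% in COLO 201, where the arms then lay apart in the other direction, at 1062 to 1103 in vehicle and 1021 to 1050 with doxycycline on the rescaled TPM scale. In RKO it was 99.1% after rescaling and 102.5% when vehicle column 1 was left out too, with overlapping columns. The spread between replicate columns differed by line: the median coefficient of variation of a member within an arm was 17.0% in RKO, 3.48% in COLO 201 and 6.62% in H1975, and the median standard error of a member's log2 change was 0.20, 0.05 and 0.08. The 4 calls in RKO were changes of −0.94 to −0.66, whereas calls in COLO 201 reached as small a change as 0.12.

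Among the sterol carriers, STARD4, a soluble cholesterol transfer protein and SREBP2 target, rose in H1975 and fell in COLO 201. H1975 had 10.5, 12.7 and 11.3 TPM in vehicle and 14.7, 12.9 and 15.5 TPM with doxycycline, a change of 0.30 ± 0.09 (SE, adjusted p = 0.017), and COLO 201 had 16.4, 17.8 and 15.6 TPM and 12.6, 14.3 and 12.8 TPM, a change of −0.30 ± 0.06 (SE, adjusted p = 0.0012). The arms did not overlap in either line. In RKO it was at −0.04 (adjusted p = 0.91), and at 0.32 (adjusted p = 0.0013) when rescaled without vehicle column 1. NPC1L1, the sterol uptake protein of the gut, was under the minimum mean of 1 TPM in every line and was not tested. It was listed at 0 in every RKO column and reached at most 0.0985 TPM in COLO 201 and 0.326 TPM in H1975.

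The 3 fatty acid genes moved apart from each other in COLO 201. SCD, the stearoyl-CoA desaturase and the most abundant member of every line, fell in both colon lines. COLO 201 had 609, 612 and 596 TPM in vehicle and 432, 426 and 406 TPM with doxycycline, 69.6% of vehicle and a change of −0.52 ± 0.04 (SE, adjusted p = 3.7e-07). RKO had 102, 81.5 and 68.7 TPM and 36.2, 49.2 and 43.9 TPM, 51.3% of vehicle and a change of −0.94 ± 0.23 (SE, adjusted p = 0.0048), with −0.48 (adjusted p = 1.5e-05) when rescaled without vehicle column 1. In neither line did the arms overlap. H1975 had 409, 455 and 419 TPM and 452, 442 and 430.3 TPM, overlapping arms with a change of 0.05 and an interval of −0.09 to 0.18, which does not reach the size seen in either colon line. FASN, the fatty acid synthase, rose in COLO 201 from 86.2, 89.2 and 85.3 TPM to 113, 116 and 109 TPM, by 0.37 ± 0.04 (SE, adjusted p = 7.7e-06), and ACACA, the acetyl-CoA carboxylase that feeds it, rose there by 0.24 ± 0.05 (SE, adjusted p = 6.2e-04). ACACA also rose in H1975, by 0.20 ± 0.07 (SE, adjusted p = 0.033), where FASN was at 0.03 (interval −0.15 to 0.22). In RKO FASN and ACACA were not called as deposited, at −0.45 (adjusted p = 0.14) and −0.23 (adjusted p = 0.37). Rescaled without vehicle column 1, FASN was called lower there at −0.27 (adjusted p = 0.0034), and ACACA was at 0.01 (adjusted p = 0.85). In COLO 201 the desaturase thus fell while the 2 enzymes that make its saturated substrates rose, and all 3 calls held after rescaling.

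The 3 LXR targets fell in COLO 201, where 15.0% of all genes were lower as deposited and 29.7% after rescaling. ABCA1, the pump that loads cholesterol onto apolipoproteins, went from 6.58, 6.797 and 6.34 TPM to 4.102, 3.84 and 3.65 TPM, 58.8% of vehicle, a change of −0.64 ± 0.06 (SE, adjusted p = 4.1e-06) and the largest fall of any member in that line. MYLIP, a ubiquitin ligase that degrades lipoprotein receptors, went from 35.2, 36.4 and 36.7 TPM to 27.8, 28.2 and 26.6 TPM, a change of −0.38 ± 0.04 (SE, adjusted p = 1.4e-05). ABCG1, the pump to lipoprotein particles, went from 13.9, 13.8 and 14.3 TPM to 12.7, 12.6 and 12.8 TPM, a change of −0.13 ± 0.05 (SE, adjusted p = 0.038). No arms overlapped for these genes, and all 3 were called lower after rescaling too; the ABCG1 call was lost when any of 5 single columns was left out, the exception being doxycycline column 3. In H1975 ABCA1 rose, from 20.01, 22.1 and 20.1 TPM to 25.04, 23.3 and 27.3 TPM, by 0.27 ± 0.08 (SE, adjusted p = 0.016), while MYLIP was at 0.00 (interval −0.17 to 0.18) and ABCG1 was under the minimum, listed at 0 in all doxycycline columns. In RKO ABCA1 was at most 0.327 TPM, in vehicle column 1, and was not tested.

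**Figure D3:**
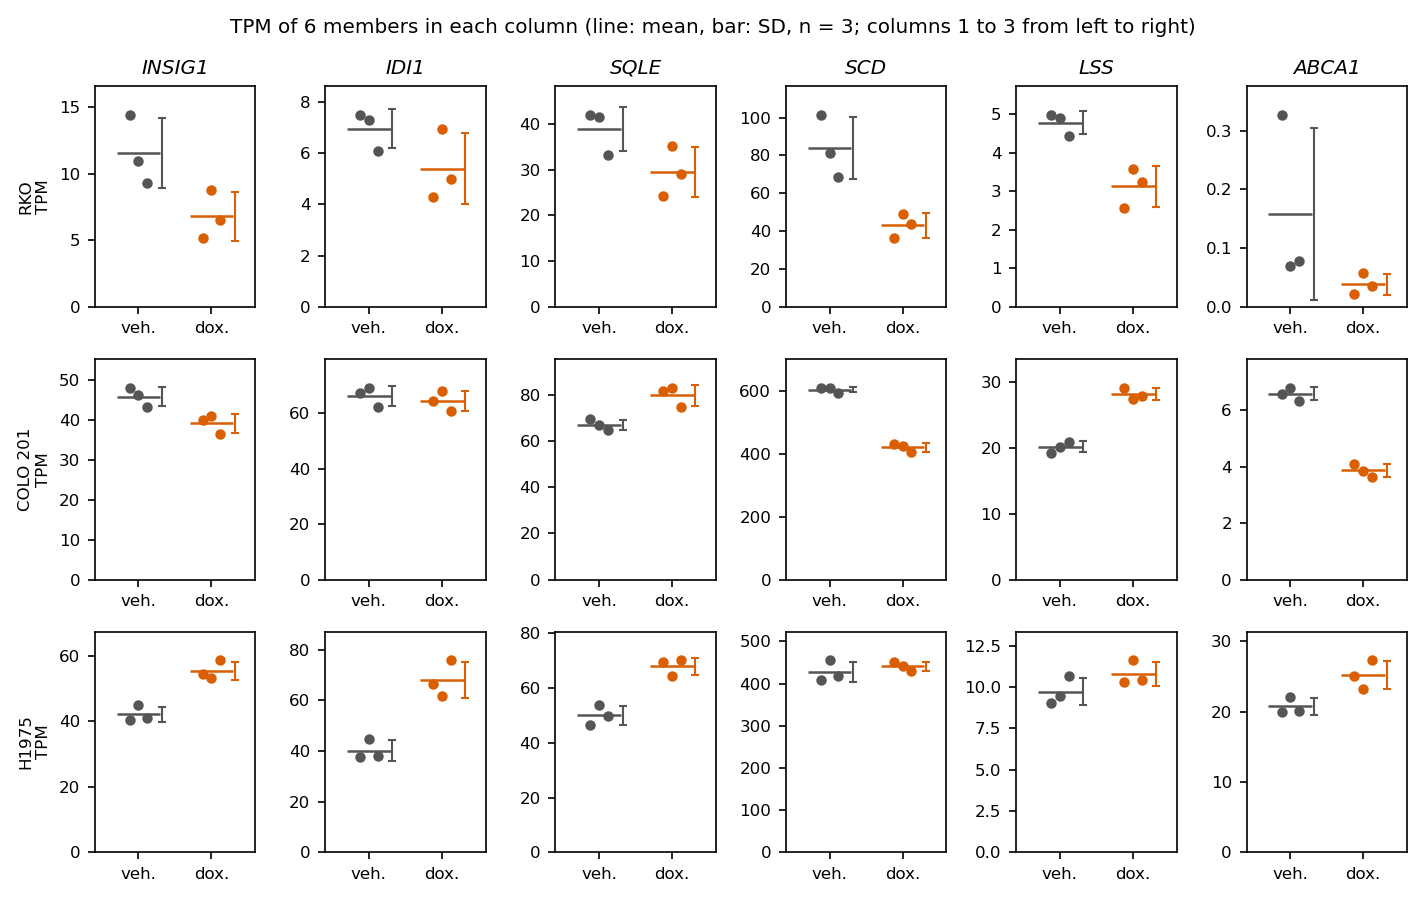
TPM (linear axes from 0) in each column for INSIG1, IDI1, SQLE, SCD, LSS and ABCA1 in RKO, COLO 201 and H1975; points are columns 1 to 3 from left to right, lines are means and bars SD, n = 3. SCD is apart between arms in RKO and COLO 201 and overlaps in H1975, and INSIG1 lies lower with doxycycline in the colon lines and higher in H1975.

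Differences between lines were tested as the difference of the changes within each table, in a fit of all 18 columns. Between H1975 and COLO 201, 2 of 28 members differed against 7.20% of all genes: IDI1 by 0.79 ± 0.18 (SE, adjusted p = 0.0099) and STARD4 by 0.60 ± 0.18 (SE, adjusted p = 0.048), both more positive in H1975. The noisier RKO columns enter the spread of that fit. With the 12 columns of COLO 201 and H1975 alone, a fit chosen after seeing the data, 12 members differed against 37.3% of all genes. More positive in H1975 were IDI1, INSIG1 (0.61 ± 0.09, adjusted p = 4.3e-05), STARD4, SCD (0.57 ± 0.07, adjusted p = 9.5e-06), SC5D, MYLIP, HMGCS1, NSDHL and FDPS. More positive in COLO 201 were SCAP, FASN and LSS, with differences, H1975 minus COLO 201, of −0.37 for SCAP (adjusted p = 0.0065), −0.34 for FASN (adjusted p = 0.012) and −0.33 for LSS (adjusted p = 0.013).

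RKO differed from COLO 201 in 12 of 28 members, against 48.5% of all genes, and from H1975 in 16, against 41.4%. As deposited, all of these were more negative in RKO, where the median difference of all genes was also negative, at −0.38 against COLO 201 and −0.34 against H1975. Rescaled and without vehicle column 1 the directions were mixed. Then 16 members differed from COLO 201, 9 of them more positive in RKO and 7 more negative, against 50.6% of all genes, and 15 differed from H1975, 3 more positive and 12 more negative, against 47.3%. IDI1 and INSIG1 were among those more negative than in H1975 under that setting, at −0.72 (adjusted p = 1.4e-05) and −0.60 (adjusted p = 1.8e-05). LSS and ACAT2 were more negative than in COLO 201, at −0.55 each (adjusted p = 3.9e-05 and 8.1e-05). The most positive differences from COLO 201 were those of MSMO1 at 0.83 (adjusted p = 5.4e-05) and DHCR7 at 0.81 (adjusted p = 2.9e-07). These comparisons share the RKO columns.

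In some pair of lines 5 members were called in opposite directions. INSIG1 rose in H1975 and fell in both colon lines, ACAT2 rose in COLO 201 and fell in RKO, FDPS rose in H1975 and fell in RKO, and STARD4 and ABCA1 rose in H1975 and fell in COLO 201. Of the members that rose in more than 1 line, PMVK, SQLE, CYP51A1, TM7SF2, DHCR7 and ACACA did so in both COLO 201 and H1975. How many of all genes were called in opposite directions, or higher in both of these lines, was not counted. These counts therefore show no trait of the members. Of all genes, 23.9% were higher and 14.6% lower in H1975, 45.9% and 15.0% in COLO 201, and 2.09% and 16.1% in RKO. SREBF1, INSIG2, MVD, MSMO1 and NSDHL were tested in every line and called in none as deposited, in the fit without the block.

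**Figure D4:**
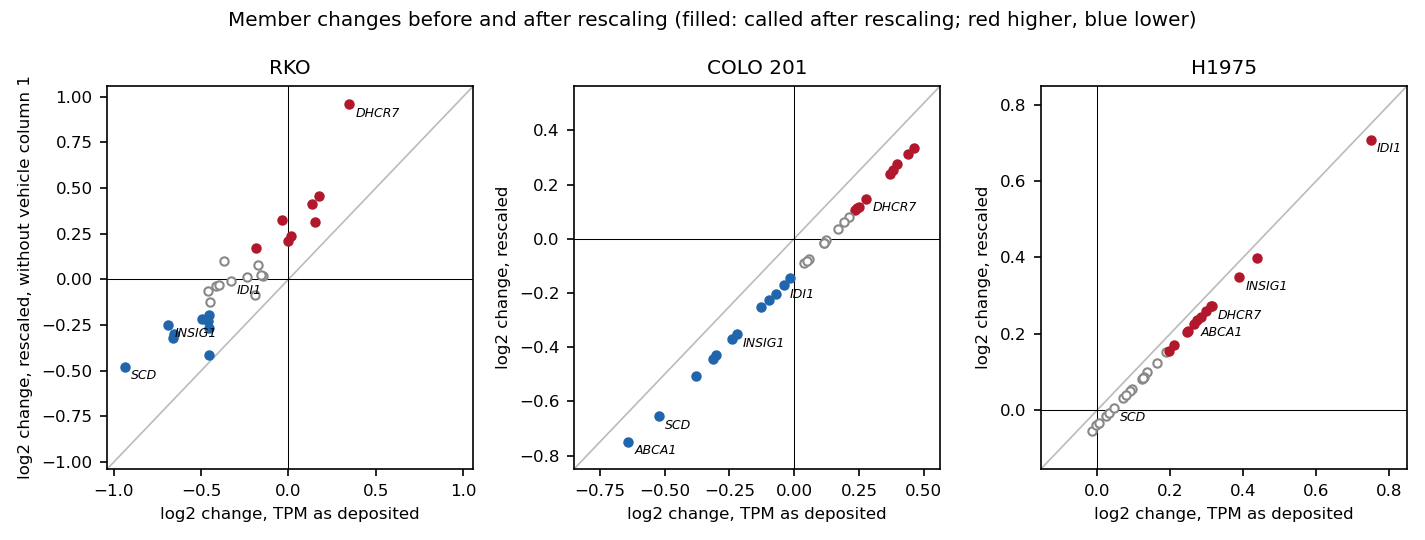
Log2 change of each tested member with TPM as deposited (horizontal axis) and after rescaling (vertical axis; in RKO also without vehicle column 1) in the 3 lines; filled points are called after rescaling, red higher and blue lower, and the grey diagonal marks equal values. The tested members of RKO lie above the diagonal, with DHCR7 highest at 0.96, those of COLO 201 lie below it and those of H1975 lie close to it.

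Genes around the pathway were counted in 6 further lists. Their median log2 changes lay between −0.64 and −0.11 in RKO, between −0.07 and 0.39 in COLO 201 and between 0.10 and 0.19 in H1975. Among 8 genes of SREBP cleavage and sterol-regulated protein degradation, the site-1 protease MBTPS1 fell in every line, also after rescaling. It stood at 82.7, 89.99 and 89.02 TPM in H1975 vehicle columns and 54.2, 54.2 and 59.5 TPM with doxycycline, a change of −0.63 ± 0.07 (SE, adjusted p = 1.3e-05). COLO 201 had 91.9, 94.7 and 91.8 TPM and 68.1, 67.1 and 64.3 TPM, a change of −0.48 ± 0.04 (SE, adjusted p = 8.3e-07). RKO had 18.4, 21.5 and 18.5 TPM and 9.93, 14.7 and 11.4 TPM, a change of −0.67 ± 0.20 (SE, adjusted p = 0.023). The arms lay apart in each line. MBTPS2, the site-2 protease, fell in COLO 201, with a change of −0.53 ± 0.07 (SE, adjusted p = 4.8e-05), and in RKO, with −0.98 ± 0.19 (SE, adjusted p = 5.9e-04), and was at −0.12 (adjusted p = 0.24) in H1975. Of these 8 genes, 0 rose and 3 fell in RKO (ERLIN2 being the third, at −0.82, adjusted p = 0.0023), 2 rose and 2 fell in COLO 201, and 0 rose and 1 fell in H1975. Of all genes tested, 2.09% were higher and 16.1% lower in RKO, 45.9% and 15.0% in COLO 201, and 23.9% and 14.6% in H1975. MBTPS1 thus moved opposite to the 13 called members of H1975. After rescaling, 1 of these 8 genes was called higher and 4 lower in COLO 201, and 2 were higher and 3 lower in RKO without vehicle column 1, where MBTPS1 was at −0.40 (adjusted p = 5.4e-05). Under that RKO setting MBTPS2 was at −0.71 (adjusted p = 5.9e-06) and ERLIN2 at −0.58 (adjusted p = 9.6e-06). Under these settings 27.3% of all genes were higher and 29.7% lower in COLO 201, and 29.1% and 29.8% in RKO.

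In the list of lysosomal and intracellular sterol handling, 4 of 10 tested genes rose and 1 fell in H1975, 5 of 9 rose and 0 fell in COLO 201 (4 and 2 after rescaling), and 0 of 8 rose and 2 fell in RKO (4 and 2 when rescaled without vehicle column 1). As deposited, 23.9% of all genes were higher and 14.6% lower in H1975, 45.9% and 15.0% in COLO 201, and 2.09% and 16.1% in RKO. Under the settings in brackets the all-gene shares were 27.3% and 29.7% in COLO 201 and 29.1% and 29.8% in RKO. NPC1, which exports cholesterol from lysosomes, rose in H1975 from 52.7, 55.1 and 54.8 TPM to 77.3, 77.8 and 79.8 TPM, a change of 0.52 ± 0.06 (SE, adjusted p = 2.9e-05). In RKO its arms did not overlap, and its change of 0.48 was not called as deposited (adjusted p = 0.096). It was called higher there after rescaling, at 0.76 (adjusted p = 0.0036), and at 0.85 (adjusted p = 4.3e-07) without vehicle column 1 too. NPC1 was not called in COLO 201, at 0.08 (adjusted p = 0.26). STARD3, an endosomal sterol transfer protein, rose in COLO 201 from 34.6, 37.4 and 37.3 TPM to 60, 59.4 and 63.4 TPM, a change of 0.73 ± 0.05 (SE, adjusted p = 9.0e-08). SOAT1, which esterifies cholesterol for storage, rose in COLO 201 by 0.61 ± 0.07 (SE, adjusted p = 1.2e-05) and in H1975 by 0.25 (adjusted p = 0.025). It fell in RKO, with a change of −0.54 ± 0.19 (SE, adjusted p = 0.048), the RKO value being −0.46 (adjusted p = 0.13) without vehicle column 1, −0.27 (adjusted p = 0.083) after rescaling and −0.17 (adjusted p = 0.012) with both. TMEM97, a sterol-responsive membrane protein, rose in H1975 by 0.22 (adjusted p = 0.016) and in COLO 201 by 0.20 (adjusted p = 8.1e-04), where the call was lost after rescaling at 0.06 (adjusted p = 0.12). It fell in RKO, with a change of −0.67 (adjusted p = 0.039), a call lost after rescaling at −0.39 (adjusted p = 0.12) but not when vehicle column 1 was left out too, at −0.58 (adjusted p = 2.5e-06).

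Among the LXR receptors and their other targets, 4 of 5 tested genes rose and 1 fell in COLO 201 (3 and 1 after rescaling), 2 of 5 rose and 0 fell in H1975 and 0 of 4 were called by limma in RKO, where 1 had an unadjusted p under 0.05. After rescaling 1 was higher and 1 lower in H1975, and 1 of 3 was higher in RKO without vehicle column 1. The shares of all genes as deposited were 45.9% higher and 15.0% lower in COLO 201, 23.9% and 14.6% in H1975, and 2.09% and 16.1% in RKO. Rescaled, they were 27.3% and 29.7% in COLO 201, 21.2% and 18.5% in H1975, and 29.1% and 29.8% in RKO without vehicle column 1. NR1H2, which encodes LXR-beta, rose in COLO 201 by 0.50 (adjusted p = 3.6e-06), and LPCAT3, a phospholipid-remodelling LXR target, by 0.39 (adjusted p = 6.5e-06). LPCAT3 also rose in H1975, by 0.19 (adjusted p = 0.039), a call lost after rescaling at 0.15 (adjusted p = 0.06). LXR targets therefore lay on both sides in COLO 201, where ABCA1, ABCG1 and MYLIP fell. In the non-sterol branches of the mevalonate pathway, which make prenyl groups, dolichol and coenzyme Q, 7 of 10 rose in COLO 201, 4 of 10 rose in H1975 and 2 of 9 fell in RKO, and no other was called as deposited, against 45.9% and 23.9% of all genes higher and 16.1% lower. After rescaling, 3 were higher and 3 lower in COLO 201, 3 were higher in H1975, and 3 were higher and 2 lower in RKO without vehicle column 1. GGPS1, the geranylgeranyl diphosphate synthase, rose in COLO 201 (0.28, adjusted p = 6.7e-04) and H1975 (0.23, adjusted p = 0.029), and PDSS1 and COQ2 of coenzyme Q synthesis fell in RKO (−0.80 and −0.73, adjusted p = 0.0038 and 0.0067). Rescaled without vehicle column 1, PDSS1 was at −0.64 (adjusted p = 4.5e-06) and COQ2 at −0.35 (adjusted p = 6.7e-04) in RKO. COQ2 rose in COLO 201 by 0.24 (adjusted p = 0.003), a call lost after rescaling at 0.11 (adjusted p = 0.092).

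Of the other fatty acid and NADPH genes, 5 of 10 rose and 1 fell in H1975, 4 of 8 rose and 1 fell in COLO 201 (2 and 4 after rescaling), and 0 of 9 rose and 1 fell in RKO (2 and 3 of 7 when rescaled without vehicle column 1). Among all genes, 23.9% were higher and 14.6% lower in H1975, 45.9% and 15.0% in COLO 201 (27.3% and 29.7%), and 2.09% and 16.1% in RKO (29.1% and 29.8%). The brackets hold the same settings, and these shares also apply to the list of other sterol and oxysterol enzymes below. ME1, the malic enzyme that supplies NADPH, rose in COLO 201 by 0.53 (adjusted p = 3.0e-06), with ELOVL6, the elongase of palmitate, at 0.50 (adjusted p = 3.4e-06), and LPIN1, a phosphatidate phosphatase, rose in H1975 by 0.40 (adjusted p = 8.3e-04). ELOVL6 also rose in H1975, by 0.23 (adjusted p = 0.032), and LPIN1 in COLO 201, by 0.16 (adjusted p = 0.036), the latter lost after rescaling at 0.05 (adjusted p = 0.44). The RKO call was the desaturase FADS2, at 26.7, 5.45 and 4.61 TPM in vehicle and 1.5, 2.201 and 1.96 TPM with doxycycline; vehicle column 1 was far above the others, and the change of −1.80 (adjusted p = 3.3e-04) was −0.83 when rescaled without it. FADS2 also fell in H1975, with a change of −0.23 (adjusted p = 0.04). In the list of other sterol and oxysterol enzymes, 2 of 4 tested genes rose and 2 fell in COLO 201 (1 and 2 after rescaling), 0 of 2 rose and 1 fell in RKO (1 and 1 when rescaled without vehicle column 1), and 0 of 4 were called by limma in H1975, where 0 had an unadjusted p under 0.05. ERG28, a scaffold protein of sterol synthesis, rose in COLO 201 by 0.37 (adjusted p = 1.6e-05), and CYP27A1, the sterol 27-hydroxylase, fell there with a change of −0.32 (adjusted p = 1.3e-04). LBR, a sterol C14 reductase of the nuclear envelope, fell in RKO from 15.1, 14.6 and 12.6 TPM to 3.75, 5.77 and 4.42 TPM, a change of −1.43 ± 0.19 (SE, adjusted p = 6.6e-06). LBR was at −1.10 (adjusted p = 8.4e-08) there when rescaled without vehicle column 1. It also fell in COLO 201, from 66.6, 70.04 and 63.1 TPM to 49.97, 51.4 and 46.3 TPM, a change of −0.43 ± 0.05 (SE, adjusted p = 1.7e-05), and was at −0.09 (adjusted p = 0.4) in H1975. TM7SF2, which catalyses the same sterol reduction, moved opposite to LBR in COLO 201.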

How the data were processed

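Messenger RNA had been isolated with the RNeasy Plus Mini kit and sequenced from TruSeq Stranded mRNA libraries, per the labels' protocols. STAR, DESeq2 and GRCh38 are named in the submitters' processing notes, with no version or role. The authors deposited TPM, 1 table per cell line with 6 columns each, in which every column sums to 1000000, so the depth per sample is unknown. Every sample record carries the same agent label, so the arm was read from the column headings; in RKO the columns headed DOX with no sign were read as vehicle, since the protocol names only DMSO and doxycycline. Single columns were not matched to sample titles, and nothing says that they are separate cultures grown on different days, so p-values measure the spread between these columns, which may be technical.

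In COLO 201, 28 entries named as dates were removed, and older symbols were mapped to current ones through RefSeq synonyms (1324, 1333 and 1358 entries in RKO, COLO 201 and H1975). Genes with a mean of at least 1 TPM over the 6 columns (10551, 11566 and 12359) entered a two-sided limma test (version 3.58.1, R 4.3.3; prior variance with a trend) of log2(TPM + 1), with Benjamini-Hochberg adjustment over all genes tested, and called at an adjusted p under 0.05. Line differences came from a joint limma fit of 18 columns over 9401 genes. The scripts were tested on simulated data. Rescaling divided each column by its median ratio to the geometric mean over genes above 0 in every column. Alternatives were pseudocounts of 0.1 and 5, no minimum and a minimum of 5 TPM, rescaling, no trend, the column number as a block, each column left out, RKO vehicle column 1 left out with rescaling, and small noncoding or mitochondrially encoded genes removed. Genes named are the 31 members, MUC1 and up to 3 called genes with the smallest adjusted p per further list and line, with their calls in other lines; FADS1 and ELOVL5 in RKO were named after their values were seen, and some genes of the further lists are counted but not reported here by name. The list is not every known SREBP2 target; others are not analysed here. The members and lists were chosen with earlier results of these data known.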

Additional observations from a re-analysis of the deposited data

Results flagged for a closer look

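The change with doxycycline differed between lines for a number of members, by limma's joint fit of all 18 columns at an adjusted p under 0.05. Against COLO 201, H1975 was more positive for IDI1 by 0.79 and STARD4 by 0.60. RKO minus COLO 201 was −0.41 for SREBF2, −0.58 for SCAP, −1.04 for ACAT2, −0.63 for PMVK, −0.57 for MVD, −0.72 for FDPS, −0.65 for SQLE, −0.96 for LSS, −0.65 for HSD17B7, −0.58 for EBP, −0.83 for FASN and −0.48 for ACACA. RKO minus H1975 was −1.08 for INSIG1, −0.85 for ACAT2, −0.74 for HMGCS1, −0.71 for PMVK, −0.48 for MVD, −1.08 for IDI1, −0.91 for FDPS, −0.40 for FDFT1, −0.84 for SQLE, −0.63 for LSS, −0.50 for NSDHL, −0.45 for HSD17B7, −0.54 for EBP, −0.49 for FASN, −0.99 for SCD and −0.43 for ACACA. The median difference over all 9401 genes was −0.38 for RKO minus COLO 201, −0.34 for RKO minus H1975 and −0.04 for H1975 minus COLO 201. Arms of 3 columns were not tested for single outlying values.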

How the results depend on the processing

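RKO rests most on the processing. Rescaling raised the members called higher there from 0 to 4, removing small noncoding RNA genes to 3, and rescaling without vehicle column 1 to 8, with 9 called lower instead of 4; with no minimum TPM 0 were lower. The genes called in RKO went from 1915 to 28 with no minimum, 2921 rescaled, 2910 without small noncoding RNA genes and 6055 rescaled without vehicle column 1. In COLO 201 the members higher fell to 9 when rescaled and to 9 without mitochondrially encoded genes, and those lower rose to 12 when rescaled. Members differing between COLO 201 and H1975 numbered 1 with a pseudocount of 0.1, 6 with 5, 11 rescaled, 12 with the columns of these lines alone and 14 with those rescaled, the last 2 chosen after seeing the data. Leaving out single columns gave 0 to 1 members higher and 0 to 9 lower in RKO with 595 to 2410 genes called (595 without doxycycline column 1 and 994 without doxycycline column 3), 12 to 14 higher and 6 to 8 lower in COLO 201 (genes called in COLO 201: 6077 to 7202), and 7 to 14 higher and 0 lower in H1975 (genes called in H1975: 3075 to 5206). Directions reversed in RKO, rescaled without vehicle column 1, for FDFT1 (0.17), SC5D (0.21) and STARD4 (0.32), and in COLO 201, rescaled, for MVK (−0.0036) and EBP (−0.015). For RKO minus COLO 201, SREBF2 turned to 0.0060 when rescaled, and FDFT1 (0.25), NSDHL (0.33) and SCD (0.17) when vehicle column 1 was left out too; for RKO minus H1975, FDFT1 (0.00050) and NSDHL (0.016) did then. The summed level of the 18 synthesis enzymes turned from 106% to 96.3% of vehicle in COLO 201 when rescaled, an alternative added after seeing the data. The cause was not tested. Whether equal column numbers mark pairs is not stated, and the values did not settle it. Same-numbered deviations correlated at 0.29, 0.27 and −0.01 in RKO, −0.05, 0.15 and 0.28 in COLO 201 and 0.16, −0.42 and −0.35 in H1975. Of the 3 vehicle columns, 2 in RKO, 2 in COLO 201 and 0 in H1975 correlated best with the doxycycline column of their own number. With the replicate block, 0 members were higher and 6 lower in RKO (2415 genes called), 15 and 9 in COLO 201 (7759) and 11 and 0 in H1975 (3738). In COLO 201 the block added MVD (limma adjusted p = 0.026) to the higher members. It added MSMO1 (adjusted p = 2.8e-04) and NSDHL (adjusted p = 0.037) to the lower ones. TPM keep no read totals, so what depth limits is unknown.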
